A study of Macaca fascicularis with 16 samples.

Results

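The genes described here are 34 genes of the cell cycle and of DNA replication, measured in mammary tissue of ovariectomized, postmenopausal female cynomolgus macaques (Macaca fascicularis). They were chosen by name: every probe set to which the array's annotation gives a single symbol from the list was taken, which found 62 probe sets for all 34 genes among the 52865 probe sets of the array. Of the 34 genes, 10 act in DNA replication, 21 in mitosis and 3 are regulators of the entry into S phase. Each of 16 animals gave 1 array, with 4 animals in a group. Controls received no hormone, a second group received CEE (conjugated equine estrogens) at 0.042 mg/kg, a further group CEE+MPA, which is that dose together with medroxyprogesterone acetate at 0.167 mg/kg, and the last group tibolone at 0.2 mg/kg (labelled OD14-HIGH). All 16 animals, controls included, had been ovariectomized, so no group represents a gland with ovarian hormones of its own. Time on treatment and age are not stated in what was read here, replicate numbers only name the animals within a group, and p-values measure the spread between these animals.

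A cell that commits to divide first raises the transcription factors and cyclins of the G1/S transition, among them E2F1, MYBL2 and CCNE2. Licensing factors such as CDC6 then load the MCM helicase at replication origins, PCNA clamps the polymerases to the DNA, and RRM1 and TYMS supply nucleotides, while GMNN (geminin) blocks a further round of licensing. Later in the cycle FOXM1 drives the genes of mitosis, in which CDK1 with its cyclins, the Aurora kinases and the proteins of spindle and kinetochore separate the chromosomes. In the breast, estrogens and progestins are known for their effect on division of the epithelium, and transcripts of these genes are widely used to read how much of a tissue is cycling. In whole tissue, fewer dividing cells and less RNA per cell cannot be told apart.

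Of the 62 probe sets, 50 were tested because their signal, a linear intensity, exceeded the table's median of 60.2 on at least 4 of the 16 arrays. Each of the 34 genes kept at least 1 tested probe set and is represented by the tested one with the highest mean, as were all 10452 named genes tested. For 21 of the 34 that probe set exceeded the median on all 16 arrays. For 7 it did so on 9 arrays or fewer (CCNE2, TPX2 and RACGAP1 on 5, CDC6 and CENPA on 7, E2F1 on 8 and MELK on 9), so these passed partly through the arrays on which they were high. Fold changes are differences in log2(signal + 16) with the standard error of 1 limma model over all 16 arrays, and a gene passed at a Benjamini-Hochberg adjusted p under 0.05 over all tested probe sets. Signals of different genes depend on their probes and were not set against each other.

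The arrays had equal trimmed mean signals, and between 48.6% and 51.8% of probe sets exceeded the median. Signals of the spike-in control dap, a bacterial RNA, were used to divide them into a low set of 6 arrays (control replicates 3 and 4, CEE replicates 1 and 2, CEE+MPA replicates 1 and 4) and a high set of 10, a division that the labels do not name. The cut was sought only among the lower arrays and fell in a gap from 7.44 to 7.70 on the log2 scale. A slightly wider gap, from 8.06 to 8.32, lay higher and was not used. Values within each set are given with the comparisons. Epithelial genes were measured on every array, with KRT19, a keratin of luminal cells, at signals of 10401 to 24356 and EPCAM, an epithelial adhesion gene, at 963 to 3548. Markers of skeletal muscle stood above a list mean of 1 on control replicate 1, CEE+MPA replicate 1 and tibolone replicates 2 and 3. The mitotic means of these 4 arrays were -0.26, 0.88, -0.68 and 0.22, spread over most of the range.

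CEE+MPA replicate 4 stood apart in these genes. On it 26 of the 34 genes had their lowest signal of all 16 arrays, whereas 9.69% of all named genes did so there. On the other 3 CEE+MPA arrays the genes were high. Of the 34, 14 had their highest signal of the 16 on replicate 3 (6.88% of all named genes did), 11 on replicate 2 (9.99%) and 1 on replicate 1 (6.99%). Tibolone replicate 1 held the highest signal of 6 more, MCM2, MCM3, MCM4, MCM5, RRM1 and MELK, against 6.2% of all named genes. In 3 genes that separate the other CEE+MPA arrays from the controls, chosen after their values were seen, CEE+MPA replicate 4 lay on the side of its own group. Its signals were 431 for the matrix gene FBLN1 (other CEE+MPA arrays 331 to 623, controls 1733 to 3758), 27.8 for LGR5 (22.1 to 55.3, controls 218 to 1088) and 1467 for DLK1 (708 to 1201, controls 28.2 to 197). Counts of calls and medians over the 34 genes that rest on the CEE+MPA group are therefore given with and without this array; group averages of signals include it.

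**Figure D1:**
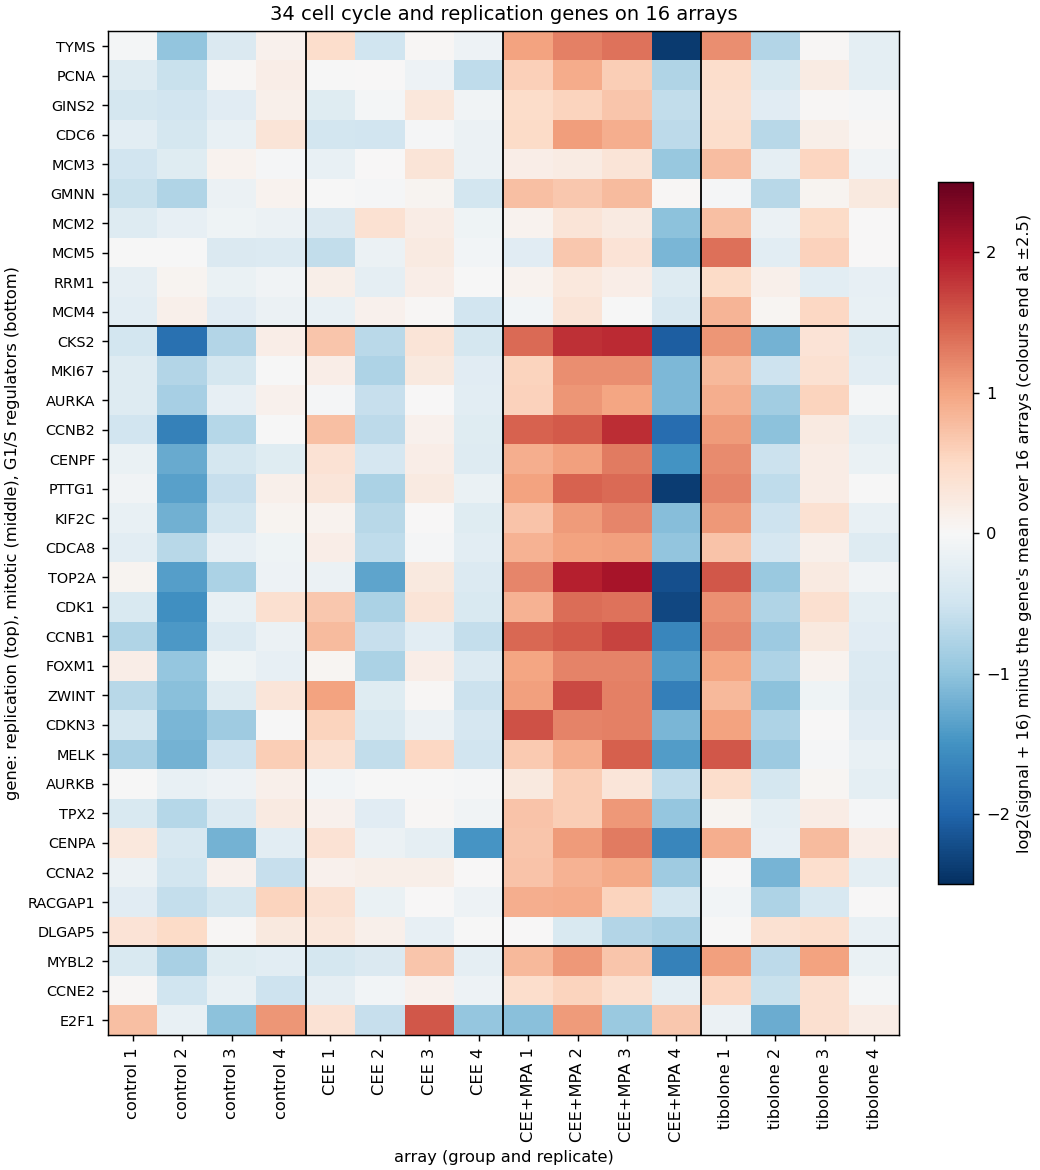
Each gene's log2(signal + 16) minus its mean over the 16 arrays, with genes in rows (10 replication, 21 mitotic and 3 G1/S genes, ordered within each by their correlation with the other members) and arrays in columns; red is above and blue below the gene's mean. CEE+MPA replicates 1, 2 and 3 and tibolone replicate 1 are red and CEE+MPA replicate 4 and control replicate 2 blue in most mitotic rows, while DLGAP5 and E2F1 do not follow the other rows.

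The genes that mark and drive mitosis varied together from array to array. The mean of the 21 mitotic genes, each centred on its own mean over the arrays, was -0.40 ± 0.43 in controls, -0.11 ± 0.38 with CEE, 0.45 ± 1.23 with CEE+MPA and 0.052 ± 0.64 with tibolone (log2 units, SD, n = 4 each). On the CEE+MPA arrays it stood at 0.88, 1.13, 1.17 and -1.39, the 3 highest values of the series and its lowest. The next lowest were control replicate 2, at -0.96, and tibolone replicate 2, at -0.68. Across the 16 arrays the correlation of a gene with the mean of the other 33 was at least 0.8 for 18 of the 21 mitotic genes (median r 0.96), from -0.20 for DLGAP5 to 0.98 for CKS2. The arrays share their group and their RNA between genes, so these correlations are a description. With group means removed, the median over all 34 was 0.92.

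MKI67, which encodes the Ki-67 protein of cycling nuclei, had signals of 120.3, 86.7, 110.03 and 153 on control replicates 1 to 4 and 177, 84.4, 187 and 125 with CEE. With CEE+MPA they were 235, 369, 365 and 63.1, and with tibolone 284, 103, 206 and 127. The first 3 CEE+MPA arrays, CEE replicates 1 and 3 and tibolone replicates 1 and 3 lay above every control, and the last CEE+MPA array below every control. The log2 fold change of CEE+MPA against control was 0.82 ± 0.43 with all arrays (limma, adjusted p = 0.257) and 1.34 ± 0.32 without CEE+MPA replicate 4 (adjusted p = 0.0264).

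TOP2A, the topoisomerase that untangles replicated chromosomes, spread most, over 4.26 log2 units. Its signals were 471, 163, 253 and 411 in controls, 407, 172, 534 and 351 with CEE, 1065, 1769, 1932 and 85.8 with CEE+MPA and 1359, 227, 529.8 and 419 with tibolone. CEE+MPA replicates 1 to 3, CEE replicate 3 and tibolone replicates 1 and 3 exceeded all controls. It had a log2 fold change of 1.32 ± 0.76 with CEE+MPA (limma, adjusted p = 0.31), or 2.30 ± 0.51 without replicate 4 (adjusted p = 0.0201).

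**Figure D2:**
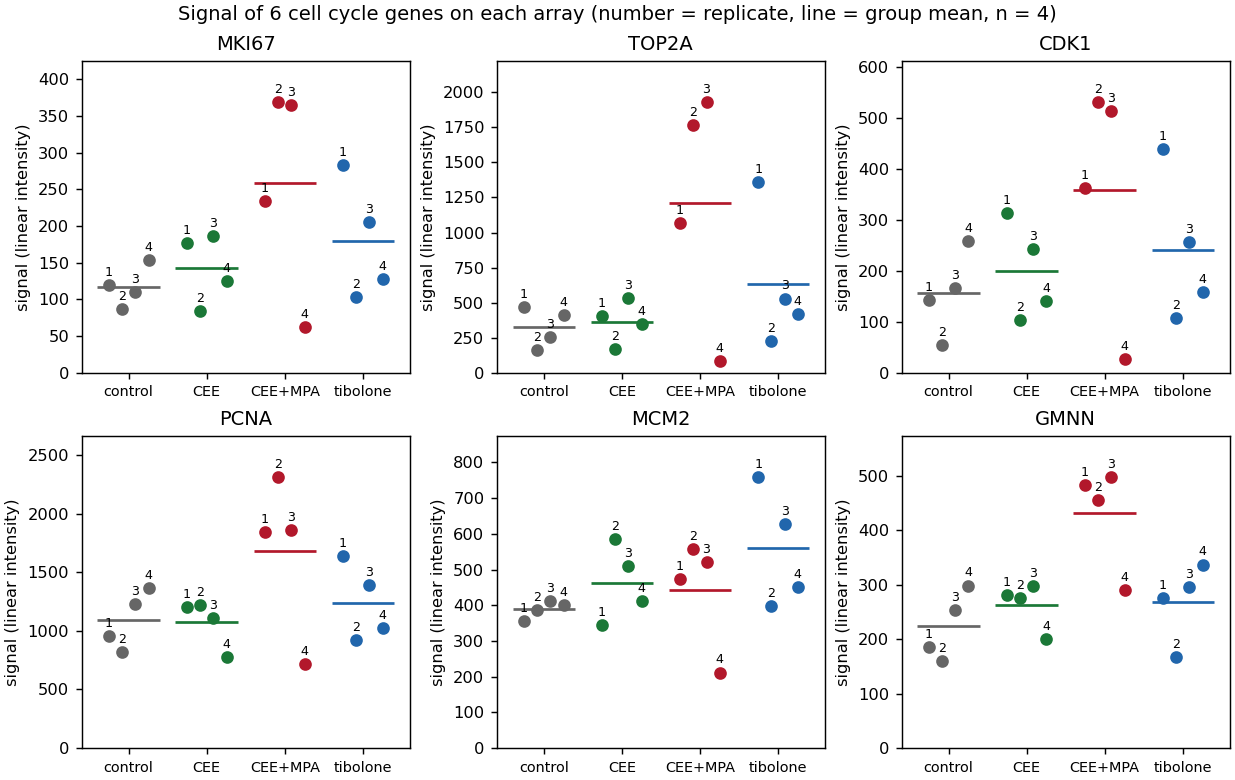
Signal (linear intensity) of 6 genes on each array by group; points are arrays numbered by replicate and lines are group means (n = 4). For MKI67, TOP2A, CDK1 and PCNA the first 3 CEE+MPA arrays lie above and the last below every control, MCM2 is highest on tibolone replicates 1 and 3, and GMNN on the last CEE+MPA array lies within the control range.

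CDK1, the kinase that starts mitosis, measured 144, 55.1, 166 and 258 in controls and 363, 531, 514 and 26.5 with CEE+MPA. Its signals were 313, 103, 243 and 142 with CEE and 439, 107, 256 and 159 with tibolone, each group overlapping the controls. The partner cyclin gene CCNB1 had 219, 131, 295 and 340.01 in controls, 669.5, 249, 312 and 246 with CEE, 1050.2, 1135, 1263 and 111 with CEE+MPA and 904, 196, 453 and 307 with tibolone. Here CEE replicate 1 and tibolone replicate 1 also stood well above the controls. CKS2, a small subunit that binds CDK1, had signals of 618, 225, 511 and 963 in controls and 2314, 3080.4, 3157 and 194 with CEE+MPA, a group range of 16.2-fold. With CEE+MPA these 3 genes had log2 fold changes of 0.76 ± 0.69, 1.43 ± 0.63 and 1.48 ± 0.74, none past the threshold with all arrays. Without replicate 4 CCNB1 (2.23 ± 0.44, limma adjusted p = 0.0139) and CKS2 (2.42 ± 0.51, 0.0171) rose, while CDK1 did not pass (1.64 ± 0.48, 0.0554).

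The other mitotic genes except DLGAP5 followed the same arrays over smaller or similar ranges. CCNB2, another B-type cyclin gene, averaged 158 ± 74.7 in controls and 615 ± 385 with CEE+MPA (SD, n = 4 each), with 54.9 on replicate 4. CCNA2, the cyclin of S and G2 phase, had 164 ± 38.9 and 299.8 ± 136, and its lowest signal, 79.6, was on tibolone replicate 2. CDKN3, a phosphatase that acts on CDKs, had 114 ± 45.6 and 374 ± 210.5 and was highest on CEE+MPA replicate 1 (555). FOXM1, the transcription factor of this gene set, measured 155, 62.1, 126 and 116 in controls and 285, 345, 346 and 41.9 with CEE+MPA, with the same arrays high and low as in its group of genes. PTTG1, which encodes securin, the brake on chromatid separation, ranged from 197 on CEE+MPA replicate 4 to 3013 on replicate 2.

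Kinase and spindle genes showed this pattern as well. AURKA, the spindle pole kinase, averaged 140.02 ± 40.6 in controls against 271 ± 144 with CEE+MPA, and TPX2, which activates it, 41.2 ± 16.1 against 83.3 ± 46.2. AURKB, the kinase of the chromosomal passenger complex, differed less, at 375 ± 37.2 against 448 ± 149, a log2 fold change of 0.18 ± 0.23. CDCA8, which encodes the borealin subunit of that complex, had 172 ± 31.1 against 352 ± 169. KIF2C, a kinesin that takes down microtubules at centromeres, lay between 51.9 on control replicate 2 and 350.4 on CEE+MPA replicate 3. RACGAP1, needed for cytokinesis, had 113 and 114 on CEE+MPA replicates 1 and 2, while replicate 3, at 85.0, exceeded the highest control by less than the digits printed. MELK, a kinase gene raised in dividing cells, was highest on tibolone replicate 1 (270.1) and CEE+MPA replicate 3 (257).

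Kinetochore genes behaved alike. CENPF averaged 226 ± 70.4 in controls and 554 ± 312 with CEE+MPA, and ZWINT 189.8 ± 85.2 and 500.1 ± 313. CENPA, the histone variant that marks centromeres, was near the bottom of the scale, averaging 36.5 ± 20.2 in controls and 89.7 ± 60.8 with CEE+MPA, with 5.04 on replicate 4. ZWINT differed in that CEE replicate 1 (509.9) came near CEE+MPA replicate 1 (520.2).

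With all arrays, the comparison of CEE+MPA with control, which addresses the response to combined hormone therapy, called 2 of the 34 genes. GMNN, the licensing inhibitor, rose by 0.91 ± 0.24 on the log2 scale (limma, adjusted p = 0.0357), and DLGAP5, a spindle gene whose probe sets disagreed, fell, with a log2 fold change of -0.76 ± 0.19 (adjusted p = 0.0338). Over all named genes 7.69% passed in this comparison, 2.74% higher and 4.96% lower, so 2 of 34 is no more than the background. The estimates themselves were mostly above 0: 32 of the 34 were positive, with a median of 0.69 against 0.012 over all genes tested. At an unadjusted p under 0.05, 7 genes were higher and 1 lower, where 13.6% and 14.7% of all named genes were. Without CEE+MPA replicate 4 the median was 1.24 and 27 were higher at that level (14.4% of all named genes). CDKN3 (1.35 ± 0.51, limma adjusted p = 0.117) and CCNE2 (0.59 ± 0.23, adjusted p = 0.126) came next after GMNN. CCNE2 exceeded the filter signal on only 5 arrays and on no control (highest 44.8), so it was tested partly through CEE+MPA arrays.

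Leaving out CEE+MPA replicate 4 changed this count from 2 to 21, all higher, where 3.47% of all named genes were higher in the same fit. This array was singled out with its values known, and the group then holds 3 animals. Those past the threshold were 16 of the 21 mitotic genes and 5 of the 10 replication genes (PCNA, TYMS, CDC6, GINS2 and GMNN), and none of the 3 G1/S genes. TPX2 had the smallest limma adjusted p (1.10 ± 0.20, 0.0107) and CKS2 the largest rise, followed by CCNB2 (2.34 ± 0.45, 0.0131). TPX2 and RACGAP1 exceeded the filter signal on only 5 arrays, and CDC6 did on 7. These genes were tested partly through the CEE+MPA arrays on which they were high. The mitotic genes that did not pass were CENPA (0.0527), CDK1 (0.0554), DLGAP5 (0.0688), MELK (0.0928) and AURKB (0.157), each as limma's adjusted p. In 30 of the 34 genes CEE+MPA replicates 1, 2 and 3 all lay above every control, which held for 14.8% of all named genes. In 29 of the 34 replicate 4 lay below every control, against 29.7% of all named genes. Leaving out any other array of these groups gave 0 to 2 calls. The count was 0 when control 1, control 2, CEE+MPA 2 or CEE+MPA 3 was omitted, 1 (DLGAP5) when control 3 or CEE+MPA 1 was, and 2 when control 4 was.

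**Figure D3:**
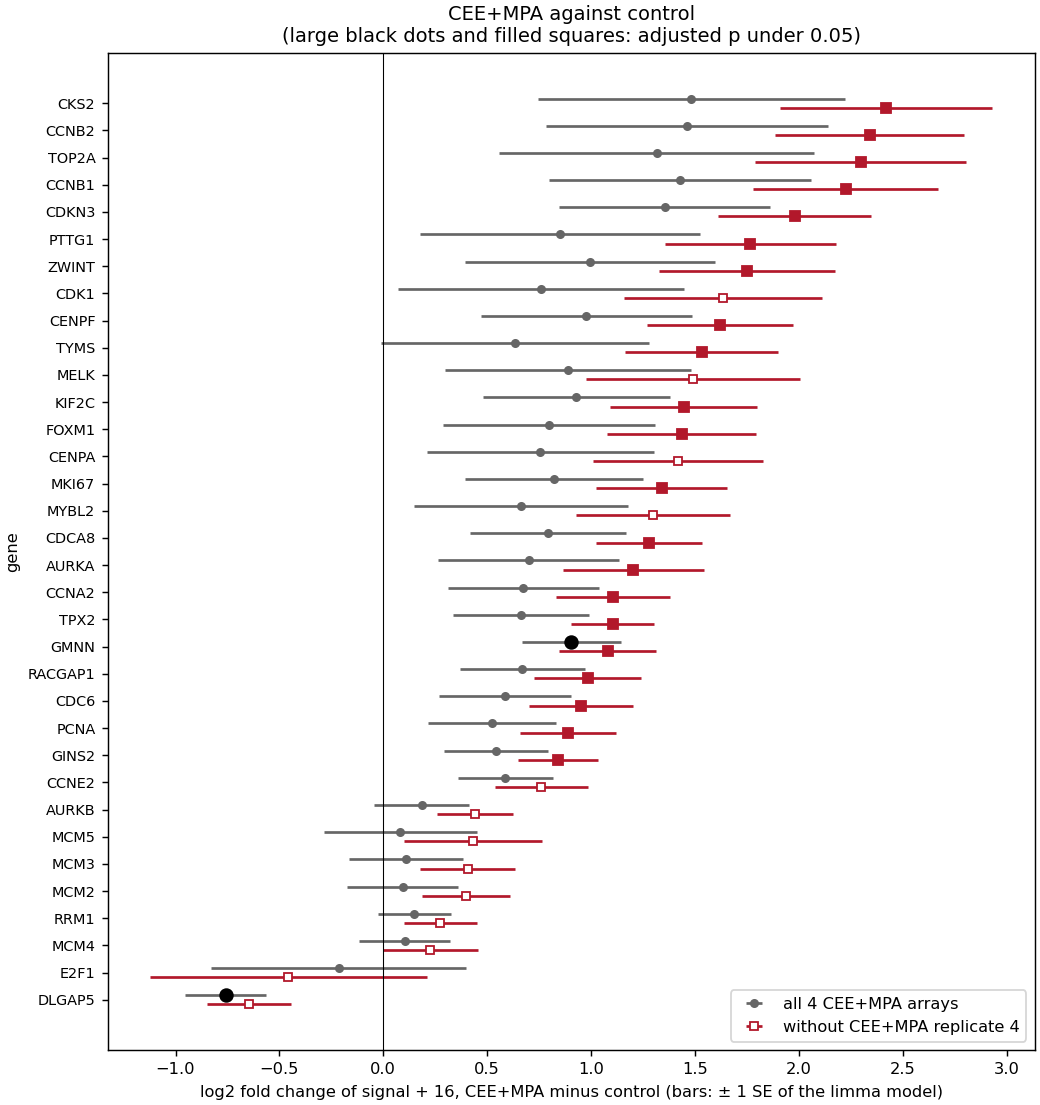
Log2 fold change of CEE+MPA against control for each of the 34 genes, with bars of ± 1 standard error of the limma model; circles use all 4 CEE+MPA arrays and squares leave out replicate 4. With all arrays only GMNN and DLGAP5 pass (black circles), and without replicate 4 21 genes pass (filled squares), while MCM2, MCM3, MCM4, MCM5 and RRM1 pass in neither.

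**Figure D4:**
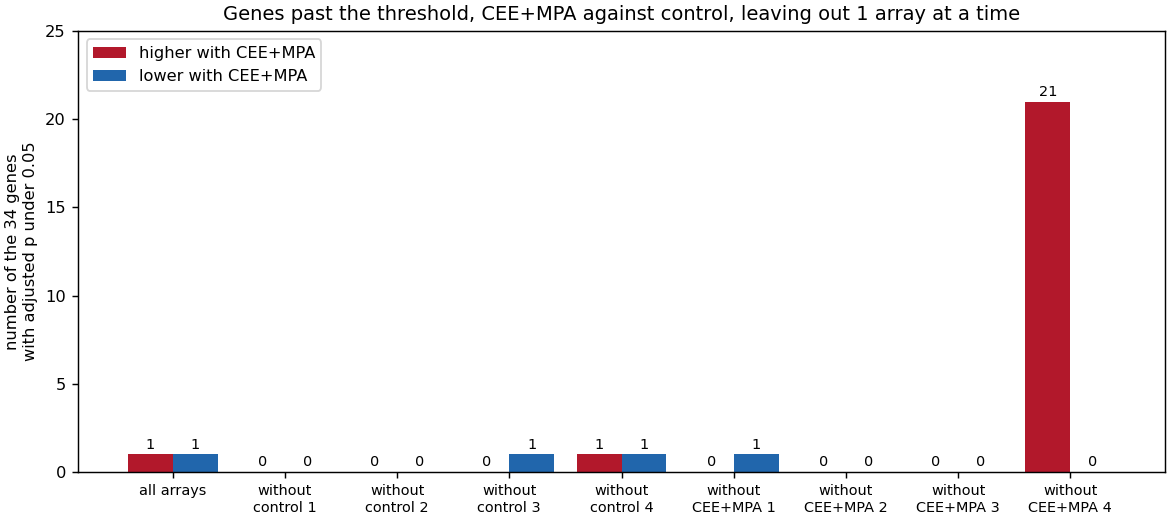
Number of the 34 genes past an adjusted p of 0.05 in CEE+MPA against control with all arrays and with each of the 8 arrays of these groups left out, higher (red) and lower (blue). The count is 21 without CEE+MPA replicate 4 and at most 2 otherwise.

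The estimates differed between the spike-in sets, and replicate 4 belongs to the low one. In the low set the mean of the 34 genes was 0.65 on CEE+MPA replicate 1 and -1.14 on CEE+MPA replicate 4. On control replicates 3 and 4 of that set it was -0.36 and 0.046. The part of CEE+MPA replicate 4 in the difference between sets was not tested. In the high set (CEE+MPA replicates 2 and 3 against control replicates 1 and 2) the median over the 34 genes was 1.43 with 32 positive, and GMNN passed (limma, adjusted p = 0.0326), while 5.72% of all named genes did. In the low set (CEE+MPA replicates 1 and 4 against control replicates 3 and 4) the median was -0.053 with 13 positive, and 0 passed of the 34 and 0% of all named genes. With the sets as a block over all arrays the count stayed at 2.

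CEE alone was compared with control to see the response to estrogen. No gene of the 34 passed (limma), nor did any reach an unadjusted p under 0.05, where 0.0574% and 14.2% of all named genes did. Of the 34 estimates 30 were positive, with a median of 0.22 against 0.014 over all genes tested. The median was 0.10 (25 positive) without control replicate 2, 0.13 (25) without CEE replicate 3 and 0.33 (32) without control replicate 4. The largest were CKS2 (0.70 ± 0.74), CCNB2 (0.69 ± 0.68), CDKN3 (0.52 ± 0.51) and CCNB1 (0.51 ± 0.63). CEE replicate 1 was the highest CEE array in each of these 4 genes. In the high set the median was 0.47 with 31 positive and in the low set -0.023 with 16 positive, with 0 calls in each (0.00957% of all named genes in each).

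Tibolone, a synthetic steroid, was compared with control in the same way. No gene passed (limma; 0 at an unadjusted p under 0.05, against 0.00957% passing and 4.83% at that unadjusted p over all named genes). The median was 0.44 with 31 of 34 positive, and within the high set, which holds all 4 tibolone arrays and control replicates 1 and 2, it was 0.55 with 32 positive and 0 calls (0% of all named genes). It was 0.22 (25 positive) without tibolone replicate 1, 0.29 (29) without control replicate 2 and 0.27 (28) with the spike-in set as a block. Other omissions raised it, to 0.60 (32) without tibolone replicate 2, 0.53 (31) without tibolone replicate 4 and 0.50 (31) without control replicate 4. Without CEE+MPA replicate 4, which shares in the estimate of the spread, 5 were higher at an unadjusted p under 0.05 (2.75% of all named genes). The tibolone animals differed widely from each other. The mean of the 34 genes was 0.76 on replicate 1, -0.59 on replicate 2, 0.26 on replicate 3 and -0.14 on replicate 4, which ranked 14, 3, 12 and 8 from the lowest of the 16. PTTG1 shows the spread, with 2576, 692, 1228 and 1073 on the 4 tibolone arrays against 1015, 410.4, 722 and 1183 in controls.

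Adding MPA to CEE gave no call among the 34 genes, with 0.0287% of all named genes past the threshold (limma). Of the estimates 30 were positive, with a median of 0.47, and 2 were higher at an unadjusted p under 0.05, GMNN (0.67 ± 0.24) and CDC6 (0.72 ± 0.32), against 2.7% of all named genes. CDC6 exceeded the filter signal on only 7 arrays and on no CEE array (highest 57.6). It was tested partly through the CEE+MPA arrays on which it was high. DLGAP5 was lower at that level (-0.53 ± 0.19), as were 4.88% of named genes. When CEE+MPA replicate 4 was left out the median was 1.07 and 26 of the 34 were higher at an unadjusted p under 0.05 (4.62% of all named genes). There was still no call (0.0288% of all named genes), and the lowest limma adjusted p was 0.202 for CDCA8 (1.16 ± 0.25), and TOP2A stood at 2.13 ± 0.51. The median was 0.30 or 0.24 without CEE+MPA replicate 2 or 3. It was 1.16 in the high set and -0.11 in the low set, with 0 calls in each (0% and 0.00957% of all named genes).

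Tibolone against CEE+MPA gave no call (limma; 7.35% of all named genes passed), with 27 of 34 estimates negative and a median of -0.28. Single arrays moved that median: it was -0.83 without CEE+MPA replicate 4, -0.56 without tibolone replicate 1, -0.052 (14 positive) without tibolone replicate 2, and -0.12 or -0.11 without CEE+MPA replicate 2 or 3. The nearest to the threshold were DLGAP5 (0.64 ± 0.19, adjusted p = 0.0603) and GMNN (-0.66 ± 0.24, adjusted p = 0.099). At an unadjusted p under 0.05, 1 gene was higher and 2 lower, and 28% of all named genes reached it in either direction. Without CEE+MPA replicate 4, 3 genes were lower with tibolone, RACGAP1 (-1.10 ± 0.26, limma adjusted p = 0.0375), TPX2 (-0.80 ± 0.20, 0.0431) and CCNA2 (-1.09 ± 0.27, 0.044), against 1.99% of all named genes that were lower. RACGAP1 and TPX2 exceeded the filter signal on only 5 of the 16 arrays. They were tested partly through the CEE+MPA arrays on which they were high, so their calls are not independent of that choice. DLGAP5 was called, higher with tibolone, without CEE+MPA replicate 1 or without tibolone replicate 4. Within the high set the median was -0.97, with no call (2.27% of all named genes). Tibolone against CEE had no call either (limma; 0 named genes passed, 0%, and 13% of named genes but none of the 34 had an unadjusted p under 0.05), with 29 of 34 positive and a median of 0.18, or 0.11 in the high set (0 calls, 0% of all named genes). This direction rested on tibolone replicate 1, without which the median was -0.036 and 15 were positive. The median was 0.044 (21 positive) with the spike-in set as a block, 0.068 and 0.09 without CEE replicate 2 and 4, and 0.39 without tibolone replicate 2. The smallest p in tibolone against CEE belonged to MCM4 (0.44 ± 0.22, adjusted p = 0.441). These comparisons share groups, so their estimates are not independent.

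Not all of the 10 replication genes followed the mitotic genes. PCNA, the sliding clamp of the polymerases, measured 960.3, 818, 1231 and 1364 in controls, 1207, 1219, 1113 and 776 with CEE, 1845, 2317, 1866 and 716 with CEE+MPA and 1637, 919.6, 1393 and 1021 with tibolone. It followed the mitotic pattern, with CEE+MPA replicates 1 to 3 above and replicate 4 below every control. TYMS, thymidylate synthase, did so over a wider range, with 243, 118, 191 and 270.2 in controls, 346, 172, 258 and 227 with CEE, 517, 625, 669 and 35.0 with CEE+MPA and 581, 145, 257 and 208 with tibolone. GINS2, a part of the replicative helicase, averaged 169.9 ± 38.6 in controls and 266 ± 94.6 with CEE+MPA. CDC6, the licensing factor, had low signals of 46.0, 38.9, 49.7 and 77.0 in controls and 88.3, 138, 123 and 31.2 with CEE+MPA. Their correlations with the mean of the other 33 genes were 0.91, 0.96, 0.91 and 0.89 over 16 arrays.

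GMNN was the one replication gene that rose with CEE+MPA over all arrays. Its signals were 483, 455, 498 and 289 with CEE+MPA, 186, 159.5, 253 and 298 in controls, 280.4, 275, 297 and 199.6 with CEE and 275, 167, 295 and 337 with tibolone. CEE+MPA replicate 4 was lower than its group but, unlike most of these genes, lay within the range of the controls, and only control replicate 4 overlapped the CEE+MPA group. Leaving out any of control replicates 1, 2 and 3 or CEE+MPA replicates 1, 2 and 3 ended the call (highest limma adjusted p 0.127). Without CEE+MPA replicate 4 the log2 fold change was 1.08 ± 0.23 (adjusted p = 0.0186).

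The MCM helicase genes and RRM1, the large subunit of ribonucleotide reductase, followed them less closely, with correlations of 0.51 (MCM4) to 0.78 (MCM3). MCM2 had signals of 356, 387, 412 and 399.7 in controls, 345, 586, 509 and 412 with CEE, 474, 559, 522 and 211 with CEE+MPA and 759.8, 399, 628 and 451 with tibolone. MCM5 had 579, 586, 453 and 458 in controls and 377, 525, 691 and 559 with CEE, against 481, 949.8, 749 and 257 with CEE+MPA and 1552, 486, 886 and 590.1 with tibolone. Both were highest on tibolone replicate 1 and lowest on CEE+MPA replicate 4. For MCM2 CEE+MPA replicates 1 to 3 lay above every control, and for MCM5 replicate 1 did not. MCM3 averaged 245 ± 46.3 in controls and 346 ± 120.4 with tibolone, MCM4 405 ± 59.5 and 579.6 ± 192, and RRM1 800.2 ± 70.3 and 901 ± 229.9 (SD, n = 4 each). With tibolone the log2 fold changes of MCM2, MCM3, MCM4 and MCM5 were 0.47 ± 0.27, 0.43 ± 0.28, 0.45 ± 0.22 and 0.61 ± 0.37 (limma, adjusted p = 0.913 for each), and with CEE+MPA 0.093 ± 0.27, 0.11 ± 0.28, 0.10 ± 0.22 and 0.083 ± 0.37. Without CEE+MPA replicate 4 the largest of these 4 with CEE+MPA was 0.43 ± 0.33 for MCM5 (adjusted p = 0.468).

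The mean of these 4 MCM genes and the mean of the mitotic genes correlated at r = 0.67 over the 16 arrays, a description across arrays that share groups. Tibolone replicates 1 and 3 had the highest MCM means, 0.94 and 0.53. CEE+MPA replicates 1, 2 and 3, whose mitotic means were higher than that of tibolone replicate 1, had MCM means of -0.023, 0.38 and 0.22. The MCM mean minus the mitotic mean was -0.91, -0.75 and -0.95 on those 3 arrays, and between 0.094 and 0.53 on the 4 tibolone arrays. On CEE+MPA replicate 4 it was 0.51, within the tibolone range. Controls ranged from -0.22 to 0.87, and CEE replicate 1, at -0.67, came near the 3 CEE+MPA arrays, with the other CEE arrays from 0.11 to 0.58. This contrast was noticed in the data and was not tested.

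**Figure D5:**
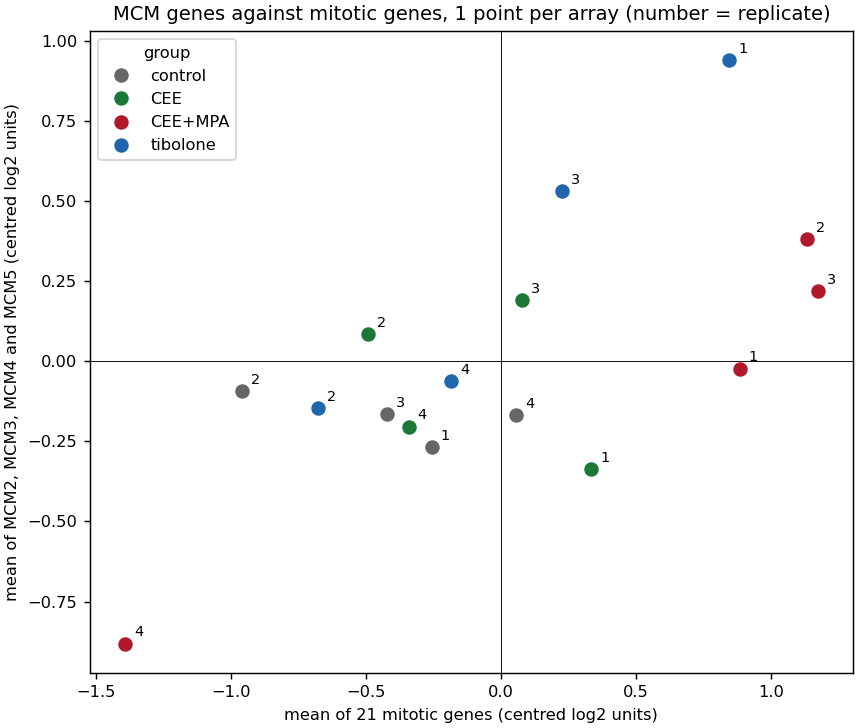
Mean of MCM2, MCM3, MCM4 and MCM5 (vertical) against the mean of the 21 mitotic genes (horizontal) on each array, in log2 units centred on each gene's mean; colours are groups and numbers replicates. CEE+MPA replicates 1 to 3 lie far right with MCM means of -0.023 to 0.38, tibolone replicates 1 and 3 lie highest, and CEE+MPA replicate 4 is lowest on both axes.

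Of the 3 regulators of S phase entry, MYBL2, a transcription factor that activates mitotic genes with FOXM1, followed the other genes. Its signals were 122, 87.6, 131 and 134 in controls, 117, 124, 274 and 138 with CEE, 302, 364, 275 and 40.2 with CEE+MPA and 353, 98.7, 345 and 145 with tibolone, with CEE replicate 3 and tibolone replicates 1 and 3 also high. CCNE2, the cyclin that works with CDK2 at the G1/S transition, spanned only 44.8, 26.6, 36.3 and 25.7 in controls and 65.5, 71.5, 62.8 and 35.2 with CEE+MPA. E2F1, the transcription factor of replication genes, showed no common pattern: its signals were 103, 46.3, 18.7 and 136 in controls and 18.5, 132, 21.5 and 96.9 with CEE+MPA, and its correlation with the other genes was 0.037. A weaker E2F1 probe set gave 0.78.

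Probe sets of the same gene did not always show the same pattern. DLGAP5, a spindle assembly gene, was represented by a probe set with signals of 2099, 2312, 1697 and 1978 in controls and 1658, 1272, 986 and 932 with CEE+MPA, every CEE+MPA array lying below every control, as it did for 10.5% of all named genes. Its correlation with the other 33 genes was -0.20. A second DLGAP5 probe set, too low to be tested (5.55 to 39.2), correlated at 0.81 and differed by 0.67 between CEE+MPA and control, the opposite direction. The fall of DLGAP5 is therefore a result of 1 probe set, and its call ended without control replicate 1 or 2 or any of CEE+MPA replicates 2, 3 and 4 (highest limma adjusted p 0.113). PTTG1 had 2 probe sets that followed the other genes (r = 0.97 and 0.96) and another tested one that did not (r = -0.38). By contrast both TOP2A probe sets (0.97 and 0.98) and both CCNB1 probe sets (0.96 and 0.96) agreed. The probes were designed for rhesus macaque, another species, and which transcripts they bind in cynomolgus was not tested.

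Other cell cycle genes were read from lists by function. Among 27 other mitotic genes tested of 54 listed, none passed in CEE+MPA against control with all arrays (limma), 10 were higher at an unadjusted p under 0.05 (13.6% of all named genes) and the median was 0.71. With CEE+MPA replicate 4 left out, 14 of the 27 were higher (3.47% of all named genes) and the median was 1.06. Their mean per array correlated with that of the 21 mitotic genes at r = 0.98. On CEE+MPA replicate 4 this mean was -0.58, above the -0.63 of control replicate 2. Of the 27 genes, 9 had their lowest signal of the 16 arrays on CEE+MPA replicate 4, as did 9.69% of all named genes and 26 of the 34 members. Among 25 other replication genes tested of 40 listed, DUT, which breaks down dUTP, was lower with CEE+MPA (-1.43 ± 0.29, limma adjusted p = 0.0134), with signals of 713 ± 189.5 in controls and 259.9 ± 99.7 with CEE+MPA (SD, n = 4 each). That was 1 of 25 lower, against 4.96% of all named genes. None was higher, and the median was 0.22. Without replicate 4, MCM10 and CDT1, both licensing or origin firing genes, were higher (3.47% of all named genes) and DUT lower. Only 3 of these 25 genes had their lowest signal of the 16 arrays on replicate 4, against 9.69% of all named genes.

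Among 17 G1 cyclin, CDK and E2F genes tested of 20 listed, 2 rose with CEE+MPA (2.74% of all named genes). MYC, a driver of cell growth, had signals of 1523 ± 335 with CEE+MPA against 773 ± 273 in controls (1.002 ± 0.27, limma adjusted p = 0.0422), and CCNH, the cyclin of the CDK-activating kinase, 811 ± 107 against 538 ± 81.1 (0.58 ± 0.16, 0.0467). In both every CEE+MPA array lay above every control, as did 9.04% of all named genes, so CEE+MPA replicate 4 was not low for them. Without it CDK4, E2F2, E2F5 and MYC passed as higher (3.47% of all named genes) and CCNH did not. Among 14 genes tested of 19 listed as cell cycle inhibitors none passed in this comparison (limma), and the median was -0.031. Without replicate 4 LIN9 alone of them was higher (3.47% of all named genes). Whether LIN9 acts as an inhibitor here was not tested. RB1, the retinoblastoma gene that holds back E2F, was higher with tibolone than with CEE+MPA (0.56 ± 0.14, limma adjusted p = 0.0314), where CCNH was lower (-0.63 ± 0.16, 0.0365) and DUT higher (1.08 ± 0.29, 0.0415). Each was the only gene called of its list (14, 17 and 25 tested), while 7.35% of all named genes passed. Without replicate 4 RB1 still passed and CCNH and DUT did not. The mitotic genes MAD2L1 and CENPU (2 of 27) were then lower with tibolone, against 1.99% of all named genes.

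Markers of other cells were read on the same arrays. In CEE+MPA against control (limma, 4.96% of all named genes lower) genes of the stromal lists were lower: 5 of 9 fibroblast genes passed (LUM, FBLN1, DPT, OGN and SFRP2, list median -0.84), 2 of 9 endothelial (ERG and RAMP2, -0.55), 2 of 9 adipocyte (RETN and CFD, -0.54) and 1 of 11 myeloid genes (MS4A7, -0.67). With replicate 4 left out the same fibroblast and myeloid genes passed, EMCN joined the endothelial genes, and CFD and KRT19 did not pass. Of the epithelial lists KRT19 was higher (1 of 16 luminal genes, against 2.74% of all named genes) and TRIM29 lower (1 of 7 basal genes). At an unadjusted p under 0.05 (limma), 2 luminal genes were higher and 4 lower (13.6% and 14.7% of all named genes). KRT7, another keratin of that list, was at 1608 to 2635 with CEE+MPA against 3166 to 6285 in controls. No gene passed of 8 T and NK cell, 6 B and plasma cell or 11 skeletal muscle genes. The fibroblast mean correlated with the mitotic mean at -0.43 over the 16 arrays. On CEE+MPA replicate 4 the summed fibroblast signal was 35482, within its group's 29166 to 43241 and below the controls' 46843 to 61409. On CEE+MPA replicate 4 the luminal epithelial list (16 tested of 20) had a mean of -0.042, within the controls' -0.133 to -0.018. Its summed signal there was 53557, within its group's 46748 to 54746 and above the controls' 40332 to 44612. Such a sum weighs the brightest probe sets most, and KRT19 alone gave 23120 of it. The basal and myoepithelial list (7 of 13) had its lowest summed signal of the 16 arrays there, 3255, against up to 4689 on the other CEE+MPA arrays and 4291 to 5634 in controls. The B and plasma cell list (6 of 12) had its lowest mean there, -0.53. Of its 6 genes 2 were the lowest of all arrays there, MZB1 at 511 and TNFRSF17 at 117. JCHAIN, at 7313, and CD79B, at 69.4, lay within the control ranges of 5244 to 11609 and 63.5 to 146. The summed signal of this list there was 18800.2, against 16530 to 22876 in controls. Over the 16 arrays the mitotic mean correlated with the means of these lists at 0.089 (luminal), 0.026 (basal) and 0.54 (B and plasma cell), and with the log2 ratio of 3 prime to 5 prime GAPDH probe sets, a measure of RNA quality, at 0.26. On replicate 4 that ratio was 0.14, within the 0.035 to 0.92 of all arrays. With the mean of the luminal or of the skeletal muscle list as a covariate, 2 of the 34 genes passed in CEE+MPA against control (limma). Of all named genes 6.79% and 6.77% passed in these fits. The medians over the 34 were 0.72 and 0.68, with 32 positive in each. No other list was used as a covariate, and the part of any list as a cause of the results was not tested.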

How the data were processed

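Mammary RNA was measured on Affymetrix rhesus macaque arrays of 1 colour. The authors deposited a linear intensity (signal) per probe set, with every array at a mean of 250.02 after trimming 2% at each end, and not log transformed. Per the submitters' processing notes the tools were GCOS and Affymetrix Expression Console; for their versions and the summary algorithm, not given in the sources used here, nothing is assumed. From the array's 52865 probe sets, 99 controls were left out; 361 carried several symbols and 27535 none and were not named, and all 34 members are symbols of the cynomolgus RefSeq table. Probe sets above 60.2, the table's median, on at least 4 arrays were tested (28704). Signals were transformed as log2(signal + 16), and limma estimated the 4 group means from all 16 arrays at once, with 6 comparisons, each adjusted by Benjamini and Hochberg. Where an array was left out the filter and the model were run again without it. Values within spike-in sets come from a fit of group by set means over all arrays. List means average centred log2 values. The members, lists and alternatives were chosen with earlier results of these data known. All 34 members are named; genes of the other cell cycle lists are named where they passed, at most 4 for a list and comparison; array by array values beyond the called genes, MKI67, TOP2A, CDK1, PCNA and MCM2 were added after they were seen. On simulated data with 28704 probe sets, 95 to 98 of 100 changes of log2 size 2 and 55 to 61 of size 1 were recovered over the 6 comparisons. Noise there was drawn independently for each probe set, and the changes went into probe sets taken at random. Recovery among the 34 genes, which varied together and widely with CEE+MPA, was not measured. Precision is limited by the number of arrays, and no detection calls were used. Alternatives changed the scaling, filter, offset, prior, probe set rule, threshold and covariates, or left out 1 array. Fits used limma 3.58.1 under R 4.3.3, figures matplotlib 3.10.9 under Python 3.11.15.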

Additional observations from a re-analysis of the deposited data

Results flagged for a closer look

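Of 40 sets of 4 arrays examined, 3 held an array far from the other 3, each time CEE+MPA replicate 4. Chance gives such a distance in about 1 in 20, and 3 of 40 is not far from that rate. The 3 readings come from 1 array and CDK1 is 1 of the 21 mitotic genes, so they are not independent. On CEE+MPA replicate 4 the mean of the 21 mitotic genes was -1.39. GMNN had a log2(signal + 16) of 8.25 there and CDK1 one of 5.41.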

How the results depend on the processing

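Each count of the 34 genes was recomputed under 31 alternatives, 16 of which left out 1 array. For CEE against control, tibolone against control, CEE+MPA against CEE and tibolone against CEE the count was 0 under all 31. For CEE+MPA against control it was 2, and became 1 with median centring, 0 without a filter, 0 with only the groups compared and 3 with array weights (CDKN3 added); leaving out 1 array gave 0 to 21. For tibolone against CEE+MPA it was 0, and became 1 with a stricter filter (which tested 22 of the 34), 1 with a trended prior, 1 with the GAPDH ratio as a covariate, 2 with array weights and 2 at a threshold of 0.10; leaving out 1 array gave 0 to 3 (3 without CEE+MPA replicate 4, 1 without CEE+MPA replicate 1 or tibolone replicate 4). The cause was not tested, except that without a filter more probe sets are adjusted for. GMNN (0.77 to 1.08) and DLGAP5 (-0.92 to -0.65) kept their direction in CEE+MPA against control under all 31 and their call under 23 each. With quantile normalization or median centring 32 of the 34 estimates of CEE+MPA against control stayed positive. No paired analysis was possible because replicate numbers only name animals, each of which had a single treatment. Depth does not apply to arrays; signals near the bottom of the scale (CENPA, CCNE2, TPX2, CDC6) understate their fold changes.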
